A study of Mus musculus with 14 samples.

Results

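The genes described here encode kinases that phosphorylate the microtubule-associated protein tau and a phosphatase that removes the phosphate: Gsk3a, Gsk3b, Cdk5, its activator Cdk5r1, Mark1, Mark2, Mark3, Mark4, Fyn and Ppp2ca. They were taken by gene symbol from the deposited gene table and matched by identifier to the counts, and all 10 were found among 55421 mouse genes. Their RNA was measured in 14 sequencing libraries of mouse brainstem, made to ask how mutant human tau changes the RNA of locus coeruleus neurons. The locus coeruleus is the small brainstem nucleus from which most noradrenaline of the forebrain comes.

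All 7 mice had a C57Bl/6 background and carried 2 transgenes. One was Th-cre, which expresses Cre recombinase from the tyrosine hydroxylase promoter and so in dopaminergic as well as noradrenergic cells. The other was Slc6a2-eGFP/Rpl10a, from a B6;FVB line, which tags a ribosomal protein under the control of the noradrenaline transporter gene. At 2 to 3 months of age the mice received an infusion into the locus coeruleus. In 4 of them, lettered B, C, L and M, it delivered human tau with the P364S substitution. In the other 3, lettered H, I and K, it delivered EYFP, a fluorescent protein. From each animal a library was made of the total homogenate before immunoprecipitation (pre-IP) and one of the RNA that came down with the tagged ribosomes (IP). There were thus 4 tau and 3 EYFP libraries of each fraction, and all groups shared both transgenes. The letters in the titles mark animals, and each animal counts as 1 replicate within a fraction.

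Total counts per library ran from 41843489 to 65664551, and the counts of the 10 genes from 627 to 32310, so all of them lay far above a floor of 3 counts. The floor covers counting error only. Some libraries stood apart. The RNA integrity number was 4.2 in the EYFP IP of animal I and from 7.7 to 9 elsewhere. Both libraries of EYFP animal K held 398 and 408 counts of the human tau construct, against 2 to 18 in animals H and I and 3527 to 47177 in the tau animals. Animal M is labelled female and had 674 and 1153 counts of Y-linked genes. The other animals labelled female had 0 to 4, and those labelled male 1096 to 4944. Xist counts were 0 and 21 in M, 16 to 120 in the other animals labelled female and 0 in those labelled male. The 12 noradrenergic markers were all higher in IP than in pre-IP (edgeR adjusted p under 0.05 for each). Levels are in CPM, a gene's counts relative to its library's counts in the genes that passed a filter on low counts. These library sizes were scaled by the trimmed mean of M-values (TMM). The summed level of the noradrenergic markers was 1087 to 8415 CPM in tau IP, 541 to 636 in EYFP IP and 375 to 496 in pre-IP. The 8 oligodendrocyte markers still summed to 4384 to 13220 CPM in IP, and no marker of the 7 cell type lists was at 0 throughout a group.

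Tau binds microtubules, and phosphate added to it by several kinases lowers that binding. GSK3 (Gsk3a and Gsk3b) and CDK5 act mostly on serines and threonines followed by a proline. CDK5 is active when bound by an activator, such as the p35 protein encoded by Cdk5r1. The MARK kinases act on the repeats that contact the microtubule, FYN acts on a tyrosine, and PP2A, whose catalytic subunit alpha is the product of Ppp2ca, removes much of the phosphate in brain. The locus coeruleus is among the first places where phosphorylated tau is found in Alzheimer disease.

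The results below turn on Mark1, Mark2 and Mark3, which differed between IP and pre-IP, and on Gsk3a and Ppp2ca, which varied together from library to library. Their promoters are shown for that reason. The sequences are from RefSeq (GRCm38.p6), where 7 of the 10 genes had an entry. Mark1, Mark2 and Mark3 had 2 entries each, and the one with the most upstream start was used. Each stretch is given 5′ to 3′ on the gene's strand, ending just before that RefSeq start site unless said otherwise. Capitals mark 2 motifs searched on both strands: the GC box, GGGCGG or its complement CCGCCC, and the CCAAT box, CCAAT or its complement ATTGG. No matches overlap in these stretches. Of 27026 RefSeq promoter windows of 250 bases, 32.96% hold a GC box and 34.5% a CCAAT box.
Mark1 promoter (chr1:184999955-185000204, minus strand): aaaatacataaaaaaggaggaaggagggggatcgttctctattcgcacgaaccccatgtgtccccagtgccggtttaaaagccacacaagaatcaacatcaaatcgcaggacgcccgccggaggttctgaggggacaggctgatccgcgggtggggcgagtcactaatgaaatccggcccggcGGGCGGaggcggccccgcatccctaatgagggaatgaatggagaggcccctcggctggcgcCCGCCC
Mark2 promoter (chr19:7341861-7342110, minus strand): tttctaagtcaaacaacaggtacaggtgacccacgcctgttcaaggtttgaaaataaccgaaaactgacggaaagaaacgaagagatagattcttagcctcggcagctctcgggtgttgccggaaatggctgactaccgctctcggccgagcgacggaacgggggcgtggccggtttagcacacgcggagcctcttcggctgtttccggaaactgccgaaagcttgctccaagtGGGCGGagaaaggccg
Mark3 promoter (chr12:111574260-111574509, plus strand): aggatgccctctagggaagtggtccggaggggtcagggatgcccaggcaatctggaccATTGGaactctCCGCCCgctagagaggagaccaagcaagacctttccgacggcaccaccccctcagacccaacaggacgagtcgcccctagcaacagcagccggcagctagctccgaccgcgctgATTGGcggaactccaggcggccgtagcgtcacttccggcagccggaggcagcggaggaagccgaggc
Gsk3a promoter (chr7:25237852-25238101, minus strand): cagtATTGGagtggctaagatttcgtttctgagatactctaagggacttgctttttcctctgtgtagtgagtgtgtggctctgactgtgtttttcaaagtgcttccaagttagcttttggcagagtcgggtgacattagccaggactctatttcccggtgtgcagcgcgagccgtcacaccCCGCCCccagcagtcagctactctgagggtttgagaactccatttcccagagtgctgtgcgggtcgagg
Ppp2ca promoter, first 107 bases of the window, up to the exon annotated in GENCODE (chr11:52098574-52098680, plus strand): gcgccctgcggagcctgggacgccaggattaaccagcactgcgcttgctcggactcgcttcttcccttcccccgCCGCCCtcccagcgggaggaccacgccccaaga

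All 5 windows hold a GC box, as they also do for Fyn, while Gsk3b has 0 GC boxes and 3 CCAAT boxes. Mark1 has 2 GC boxes, at 67 and 6 bases before the start, and 0 CCAAT boxes. That start lies 384 bases before the gene start annotated in GENCODE. Mark2 has 1 GC box at 16 bases and 0 CCAAT boxes. In Mark3 a GC box at 181 bases lies next to a CCAAT box at 192, with a second CCAAT box at 67. The windows of Gsk3a and Ppp2ca differ in base content: Gsk3a has 9 CG pairs and 52% G or C, Ppp2ca 30 CG pairs and 73.6% over its 250 bases. The median window holds 6 CG pairs and 52% G or C. The matches describe the letters of these windows, and no binding was measured.

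Levels were first compared between genes, as CPM per kilobase of merged exon. Cdk5 stood highest in each group, with means of 152 ± 11.6 in tau IP, 135 ± 12.3 in EYFP IP, 142 ± 7.14 in tau pre-IP and 138 ± 10.2 in EYFP pre-IP (SD). Its lowest library lay above the highest of the next gene in each group. Ppp2ca and Gsk3a followed, Ppp2ca ahead in IP (51.2 ± 29.7 against 34.4 ± 20.3 in tau IP) and Gsk3a ahead in pre-IP (56.0 ± 10.7 against 52.1 ± 16.0 in EYFP pre-IP), with ranges that overlapped in every group. Fyn took the fourth place and Mark2 the fifth in all 4 groups, and the ranges of these neighbours did not overlap. Mark4, Cdk5r1 and Gsk3b came next, between 6.26 and 9.40 on average, and neighbours among them overlapped. Mark1 and then Mark3 were lowest, and their ranges overlapped in the EYFP groups but not in the tau groups. Separations between genes depend on the length used. Merged exons and longest transcript are 7942 and 4488 bases for Mark2, 4363 and 3562 for Fyn, 4356 and 4221 for Mark1 and 9700 and 5601 for Mark3. The separations of Fyn from Mark2 and of Mark1 from Mark3 are thus given for merged exons only.

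**Figure D1:**
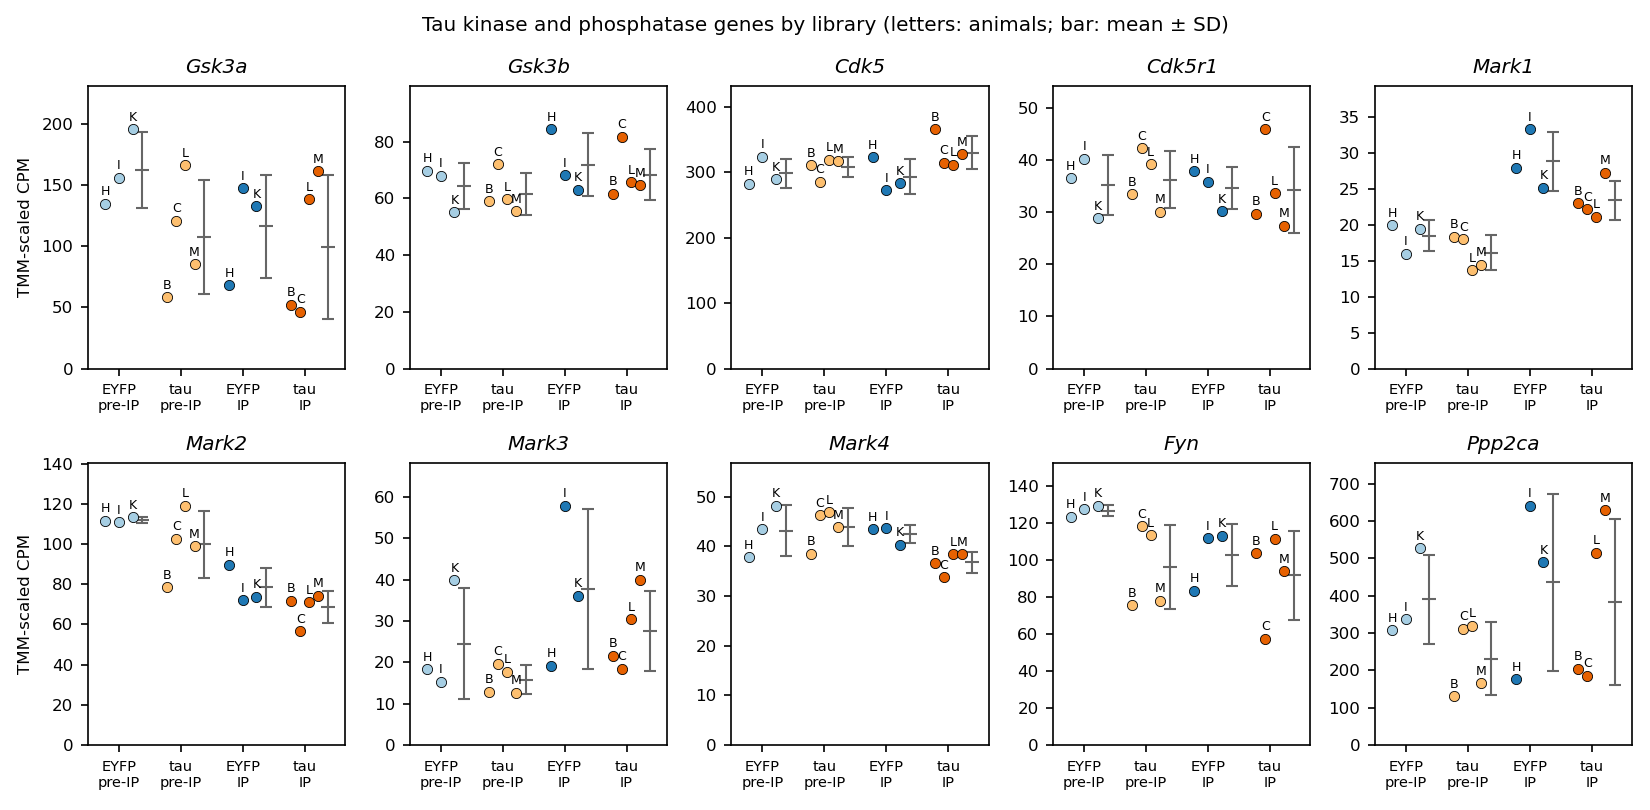
CPM on TMM-scaled library sizes (y axis, from 0, a separate scale for each gene) of the 10 genes in each library, by group on the x axis, with letters for animals and a bar for the mean ± SD. Cdk5 stays between 272 and 366 CPM, whereas Ppp2ca runs from 130.5 to 641 and Gsk3a from 46.5 to 196.

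From here levels are CPM on the same TMM-scaled library sizes, not divided by length, and are compared only within a gene. The genes fell into a steady and a variable set. After the mean of each group was subtracted, the SD of log2 CPM over the 14 libraries was 0.10 for Cdk5 and 0.12 for Mark4, and 99.4% and 98.6% of 20494 genes varied more. It was 0.18 for Mark2, 0.19 for Gsk3b and Mark1, 0.25 for Cdk5r1 and 0.32 for Fyn, all below the median gene at 0.37. Mark3 reached 0.58, Gsk3a 0.69 and Ppp2ca 0.77. The genes compared were not matched for level, and counting error adds to the spread of genes with low counts.

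Gsk3a (ENSMUSG00000057177.12, chromosome 7, 25228258 to 25237851) and Gsk3b (ENSMUSG00000022812.14, chromosome 16, 38089001 to 38246084) encode the 2 forms of glycogen synthase kinase 3. Gsk3a had 52.2, 46.5, 139 and 161 CPM in the tau IP libraries of B, C, L and M, and 68.5, 147 and 133 in the EYFP IP libraries of H, I and K. In pre-IP it had 58.3, 121, 167 and 85.7 CPM in the same tau animals and 135, 156 and 196 in the EYFP animals. The IP libraries thus split into a low set (B, C and H) and a high set (I, K, L and M), each with both treatments, and in pre-IP B and M were lowest. Gsk3b had no such split: it ran from 61.7 to 84.4 CPM in IP and from 55.0 to 72.0 in pre-IP.

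Between IP and pre-IP neither GSK3 gene passed the test. The log2 fold change was -0.26 for Gsk3a (SE 0.29, edgeR adjusted p 0.529) and 0.16 for Gsk3b (SE 0.10, edgeR adjusted p 0.249). Within animals Gsk3a was lower in IP in 6 of 7, from -1.38 in C to 0.91 in M. Gsk3b was higher in 7 of 7, from 0.0042 in I to 0.27 in H, as were 12.6% of all genes tested. Per kilobase Gsk3a exceeded Gsk3b in all 14 libraries, by 1.93 times in the tau IP of C up to 12.1 times in the EYFP pre-IP of K. These are the libraries lowest and highest in Gsk3a, the form that varied.

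Cdk5 (ENSMUSG00000028969.10, chromosome 5, 24418241 to 24423530) and Cdk5r1 (ENSMUSG00000048895.13, chromosome 11, 80477023 to 80481184) encode the kinase and its p35 activator. Cdk5 had 366, 315, 312 and 328 CPM in the tau IP of B, C, L and M, and 323, 272 and 284 in the EYFP IP of H, I and K. Its pre-IP levels, 282 to 324 CPM, lay within the IP range. Cdk5r1 ran from 27.4 to 46.0 CPM in IP and from 28.8 to 42.2 in pre-IP, highest in the tau animal C in both fractions. The log2 fold change of IP over pre-IP was 0.05 for Cdk5 (SE 0.08, edgeR adjusted p 0.667) and -0.05 for Cdk5r1 (SE 0.13, edgeR adjusted p 0.808). Neither differed between fractions beyond its error. Per kilobase Cdk5 exceeded Cdk5r1 by 12.98 to 23.7 times. That ratio was 19.4 on average in tau IP and 16.3 to 16.7 in the other groups, with overlapping ranges.

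The MARK genes gave all the calls among the 10 when IP was compared with pre-IP over the 14 libraries, with treatment as an additive term. That fit had no term for the animal, so the 2 libraries of an animal entered as if independent. With the animal as a replicate block the calls among the 10 were the same. Mark1 rose to 1.51-fold and Mark3 to 1.67-fold in IP, whereas Mark2 fell by 30.4%. These were 3 of 10 genes, 2 higher and 1 lower, past an edgeR adjusted p of 0.05, beside 31% of 18792 genes tested (16.3% higher and 14.7% lower). A share of this size is close to that background. The same 3 had an unadjusted p under 0.05, beside 41.6% of all genes (19.8% lower), and 5 of the 10 lay below 0, beside 50.3%. In bulk libraries, more cells of a type and more RNA per cell cannot be told apart.

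Mark1 (ENSMUSG00000026620.11, chromosome 1, 184896789 to 184999570) had 23.0, 22.2, 21.1 and 27.2 CPM in the tau IP of B, C, L and M and 27.9, 33.3 and 25.1 in the EYFP IP of H, I and K. In pre-IP it had 18.3, 17.9, 13.7 and 14.4 CPM in the tau animals and 19.9, 15.9 and 19.4 in the EYFP animals. Every IP library lay above every pre-IP library, as for 4.26% of genes tested, while none of the 10 was separated in the other direction (5.46% of genes). The log2 fold change was 0.59 (SE 0.11, edgeR adjusted p 0.00117), and the increase was seen in 7 of 7 animals, from 0.30 in C to 1.06 in I. Animal I, whose IP had the low RNA integrity number, gave the highest value, and without it the change was 0.51 (edgeR adjusted p 0.00633). The mean was 0.54 in the animals with library numbers up to 11 and 0.64 in those from 17 on.

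Mark2 (ENSMUSG00000024969.15, chromosome 19, 7275396 to 7341860) went the other way. It had 71.8, 56.8, 71.0 and 74.4 CPM in the tau IP of B, C, L and M and 89.7, 72.1 and 73.8 in the EYFP IP of H, I and K. In pre-IP it had 78.7, 103, 119 and 99.1 CPM in the tau animals and 112, 111 and 113 in the EYFP animals. Only the EYFP IP of H and the tau pre-IP of B kept the fractions from separating. The log2 fold change was -0.52 (SE 0.10, edgeR adjusted p 0.0013), lower in 7 of 7 animals, from -0.86 in C to -0.13 in B, as were 14.6% of genes tested. The mean was -0.48 in the animals with library numbers up to 11 and -0.59 in those from 17 on.

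Mark3 (ENSMUSG00000007411.16, chromosome 12, 111574523 to 111656221) had 21.6, 18.5, 30.4 and 40.0 CPM in the tau IP of B, C, L and M and 19.2, 57.9 and 36.1 in the EYFP IP of H, I and K. In pre-IP it had 12.9, 19.7, 17.8 and 12.7 CPM in the tau animals and 18.4, 15.3 and 39.9 in the EYFP animals. The fractions overlapped, and the change within animals ran from -0.14 in K and -0.09 in C to 1.65 in M and 1.92 in I. The log2 fold change was 0.74 (SE 0.26, edgeR adjusted p 0.0392). It no longer passed without B (0.74, adjusted p 0.0541), I (0.52, adjusted p 0.163), L (0.73, adjusted p 0.0916) or M (0.57, adjusted p 0.14) in edgeR. The Mark3 call was thus lost when any 1 of these 4 animals was left out. The change itself shrank without I and M, which stand apart in RNA integrity and in Y-linked counts. Without B and L it hardly moved.

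Mark4 (ENSMUSG00000030397.10, chromosome 7, 19424775 to 19458821) had 33.8 to 43.7 CPM in IP and 37.8 to 48.2 in pre-IP. Its change between fractions, -0.15 (log2), had an SE of 0.09 and did not pass (edgeR adjusted p 0.236). With each treatment fitted alone, Mark1 and Mark2 passed in the tau animals (edgeR adjusted p 0.0432 and 0.0274) and not in the EYFP animals (0.0573 and 0.0722), with changes of the same sign. The interaction of treatment and fraction passed for none of the MARK genes. Its values were -0.10 for Mark1 (SE 0.24), -0.03 for Mark2 (SE 0.21), 0.19 for Mark3 (SE 0.53) and -0.23 for Mark4 (SE 0.18).

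**Figure D2:**
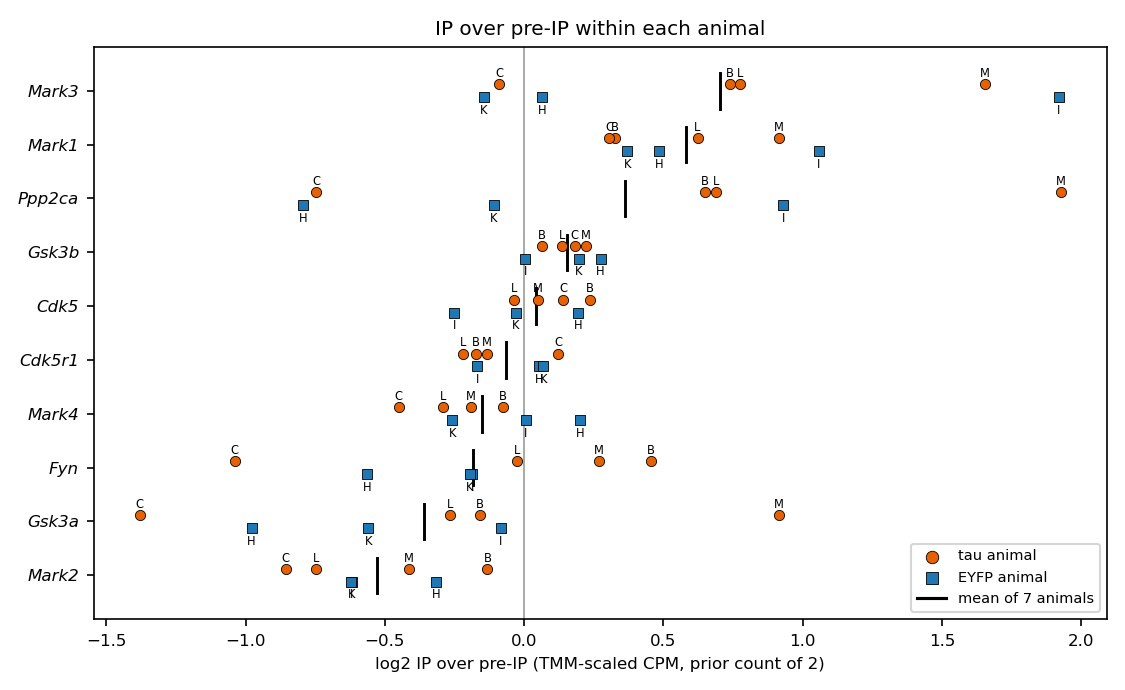
log2 of IP over pre-IP within each animal (x axis) for the 10 genes (rows, ordered by mean), with circles for tau animals, squares for EYFP animals, letters for animals and a line at the mean of 7. Mark1 lies above 0 and Mark2 below 0 in 7 of 7 animals, while Ppp2ca runs from -0.79 in H to 1.93 in M.

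Taken as shares of the summed CPM per kilobase of the 4 Mark genes, the family had a different makeup in the 2 fractions. Mark2 made up 45.9% ± 3.49 in tau pre-IP and 47.0% ± 3.44 in EYFP pre-IP, and 34.9% ± 1.77 in tau IP and 33.7% ± 5.32 in EYFP IP (SD, n = 4 and 3). Mark1 had 13.7% ± 3.09 and 14.1% ± 1.67 in the pre-IP groups, and 21.8% ± 1.89 and 22.3% ± 1.41 in the IP groups (SD, tau and then EYFP). For both genes the shares of IP and pre-IP libraries did not overlap. Mark4 kept close to 31% to 34% in all groups. Mark3 ran from 4.94% to 18.6% over the libraries. Shares depend on the length used, and with the longest transcript Mark2 had 49.1% over all libraries in place of 40.4%.

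**Figure D3:**
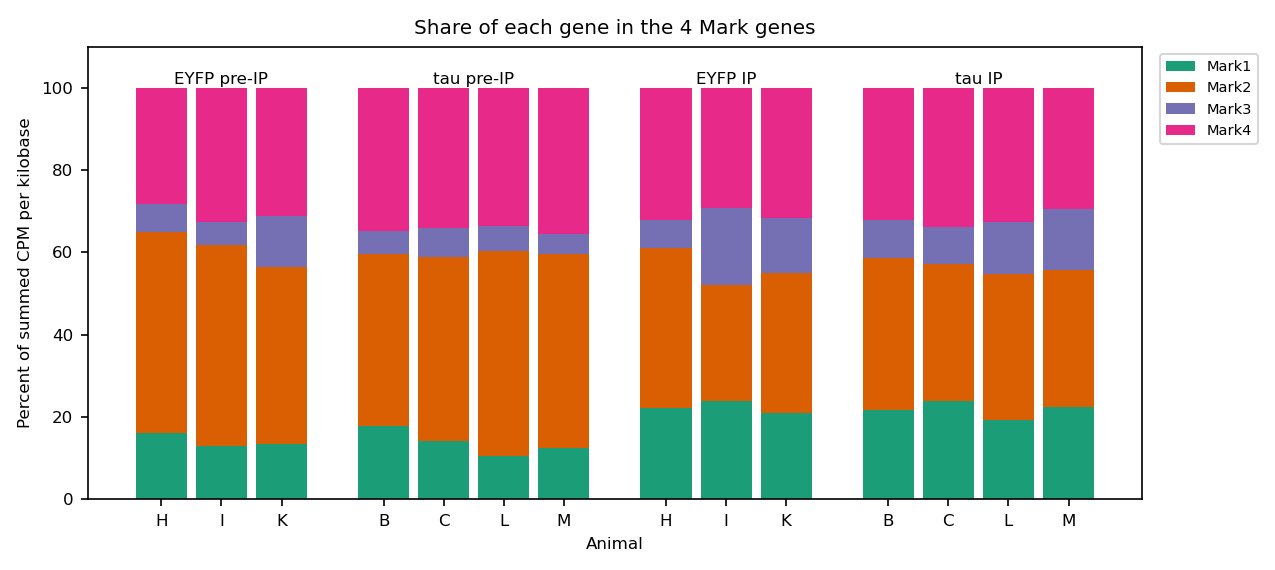
Percent of the summed CPM per kilobase of merged exon (y axis, stacked to 100) taken by each of the 4 Mark genes in each library (x axis, animals within groups). Mark2 has 41.8% to 49.96% in pre-IP and 28.3% to 39.0% in IP, and Mark1 10.5% to 17.8% and 19.3% to 23.8%.

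Fyn (ENSMUSG00000019843.14, chromosome 10, 39368855 to 39565381) encodes the Src family kinase that acts on tau at a tyrosine. It had 104, 57.6, 112 and 94.0 CPM in the tau IP of B, C, L and M and 83.5, 112 and 113 in the EYFP IP of H, I and K. In pre-IP it had 75.7, 118, 114 and 78.1 CPM in the tau animals and 123, 127 and 129.6 in the EYFP animals. The tau libraries were spread wide in both fractions, and the EYFP pre-IP libraries lay close together above them. Between fractions the log2 fold change was -0.16 (SE 0.15, edgeR adjusted p 0.445).

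Ppp2ca (ENSMUSG00000020349.4, chromosome 11, 52098681 to 52127778) had 205, 185, 515 and 628 CPM in the tau IP of B, C, L and M and 177, 641 and 489 in the EYFP IP of H, I and K. In pre-IP it had 130.5, 311, 319.5 and 165 CPM in the tau animals and 307, 337 and 527 in the EYFP animals. Its IP libraries split into the same 2 sets as those of Gsk3a, with a gap of 2.39-fold between the tau IP of B and the EYFP IP of K, and both treatments were on each side. In pre-IP B and M were again lowest. The log2 fold change of IP over pre-IP was 0.49 (SE 0.33, edgeR adjusted p 0.279), with 4 of 7 animals higher. It was 0.22 without M, and 0.71 in the tau and 0.16 in the EYFP animals alone.

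Over the 14 libraries, with group means subtracted, Pearson's r of log2 CPM was 0.96 between Gsk3a and Ppp2ca and 0.89 between Mark3 and Ppp2ca. It was 0.87 between Gsk3b and Cdk5r1 and -0.59 between Cdk5 and Mark3, the lowest of the 45 pairs. These values describe libraries that share their depth and preparation. The high set held the IP with the lowest RNA integrity number (I, 4.2) and the 3 IP libraries with the highest library numbers (K, L and M, with 8.5 to 9). Their part in the pattern was not tested.

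**Figure D4:**
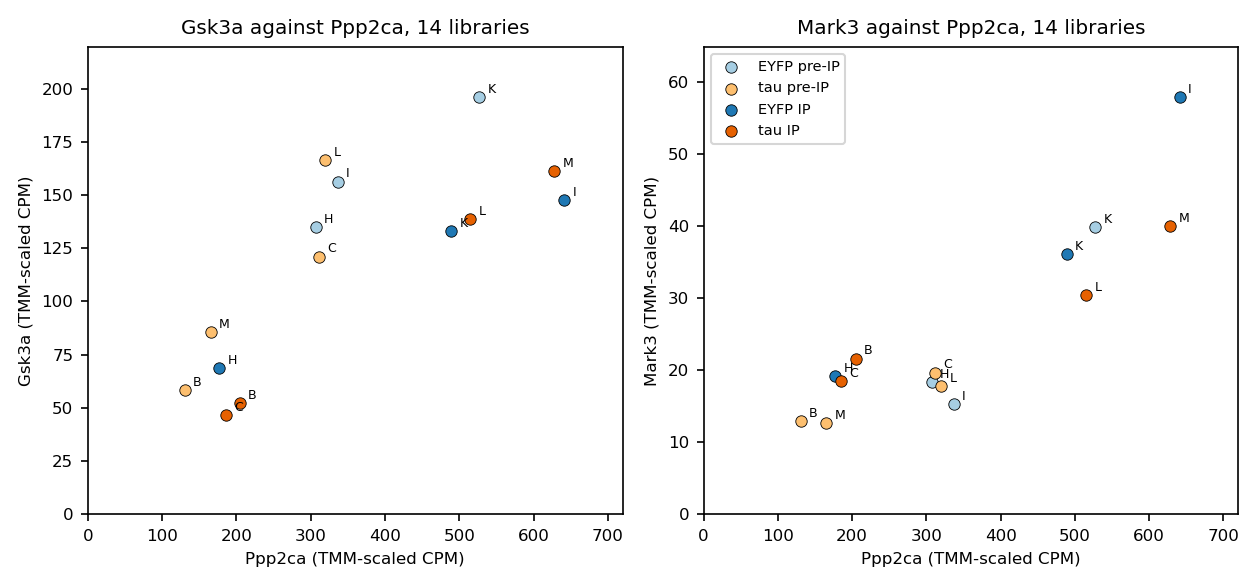
CPM of Gsk3a (left) and of Mark3 (right) against CPM of Ppp2ca on linear axes from 0, a point per library, coloured by group and lettered by animal. In IP, B, C and H lie at 177 to 205 CPM of Ppp2ca and I, K, L and M at 489 to 641.

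By the same measure over 20494 genes, the gene with the highest r was Rac1 for Ppp2ca (0.997), Suds3 for Gsk3a (0.991), Bag1 for Fyn (0.955) and Eid2 for Mark3 (0.954). It was Pigyl for Cdk5 (0.914), Mtmr3 for Mark2 (0.894), Zfp85os for Mark1 (0.885) and Gm54639 for Mark4 (0.878), a gene near the floor at 0.0877 to 0.69 CPM. An r over 0.9 was shared with 213 genes for Gsk3a (1.04% of genes), 192 for Ppp2ca (0.94%), 33 for Mark3 (0.16%) and 13 for Fyn (0.06%). Each of the others shared such an r with 0 to 7 genes. Every highest r was picked from 20494 genes over only 14 libraries. How high it would be among unrelated genes was not tested. Rac1 had 83.7, 67.4, 247 and 313 CPM in the tau IP of B, C, L and M and 69.9, 315 and 253 in the EYFP IP of H, I and K, so it showed the same low and high sets. The pattern of Gsk3a and Ppp2ca was thus found in many other genes.

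Tau and EYFP animals were then compared within each fraction. In IP none of the 10 genes passed the test: 0 of 19472 genes did in edgeR (0%), 2336 (12%) had an unadjusted p under 0.05 (4.06% lower), and 0 of the 10 were among these. DESeq2 called 411 genes and 0 of the 10, with no adjusted p for Cdk5r1, Mark1, Mark3 and Mark4. The log2 fold changes of tau over EYFP ran from -0.46 for Mark3 (SE 0.37, edgeR adjusted p 0.652) to 0.16 for Cdk5 (SE 0.14, edgeR adjusted p 0.663). They were below 0 for 9 of 10, as for 56.6% of all genes tested, with a median of -0.20 against -0.08 for all genes. Mark1 was at -0.31 (SE 0.18), Gsk3a at -0.23 (SE 0.46), Mark2 at -0.21 (SE 0.16), Ppp2ca at -0.19 (SE 0.51), Fyn at -0.17 (SE 0.23), Gsk3b at -0.08 (SE 0.17) and Cdk5r1 at -0.03 (SE 0.20). For Gsk3a and Ppp2ca the error was larger than the change, and each treatment had libraries in the low and in the high set. With the range of library numbers as a covariate the values were -0.65 (SE 0.34) for Gsk3a and -0.60 (SE 0.43) for Ppp2ca, neither called. Mean differences of log2 CPM had opposite signs by range: -1.03 up to 11 and 0.17 from 17 on for Gsk3a, and -0.79 and 0.22 for Ppp2ca. Up to 11 there were 2 tau and 2 EYFP libraries, and from 17 on 2 tau libraries and only 1 EYFP library, that of K. Mark3 came to -0.014 without animal I, whose IP had the low RNA integrity number, and to -0.79 without H.

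Mark4, which encodes the MARK kinase with the second lowest spread of the 10 genes, was the 1 whose IP groups did not overlap. It had 36.5, 33.8, 38.4 and 38.3 CPM in the tau animals B, C, L and M and 43.5, 43.7 and 40.3 in the EYFP animals H, I and K. The tau libraries were lower, as with 5.84% of genes tested (8.62% were separated the other way, with none of the 10), and the log2 fold change was -0.22 (SE 0.14, edgeR adjusted p 0.562). Mean differences of log2 CPM were -0.31 among library numbers up to 11 and -0.07 from 17 on, where K was the only EYFP library. Beside these values, the 12 noradrenergic markers were all above 0 in tau over EYFP IP, with a median of 2.69, and the markers of other neurons, astrocytes and microglia all below 0, with medians of -0.58, -0.51 and -0.42. Of the oligodendrocyte markers 7 of 8 lay below 0 (median -0.48), as did 6 of 6 of endothelium and pericytes (-0.26) and 5 of 5 of ependyma and choroid plexus (-1.15). The last list summed to 47.9 to 145 CPM in the libraries of tau animals L and M and to 752 to 1759 in all others. The RNA concentration was 0.1 to 0.8 ng/µl in tau IP and 0.7 to 2.8 in EYFP IP. None of the markers passed the test, and the part of markers and concentration in the values of the 10 genes was not tested.

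**Figure D5:**
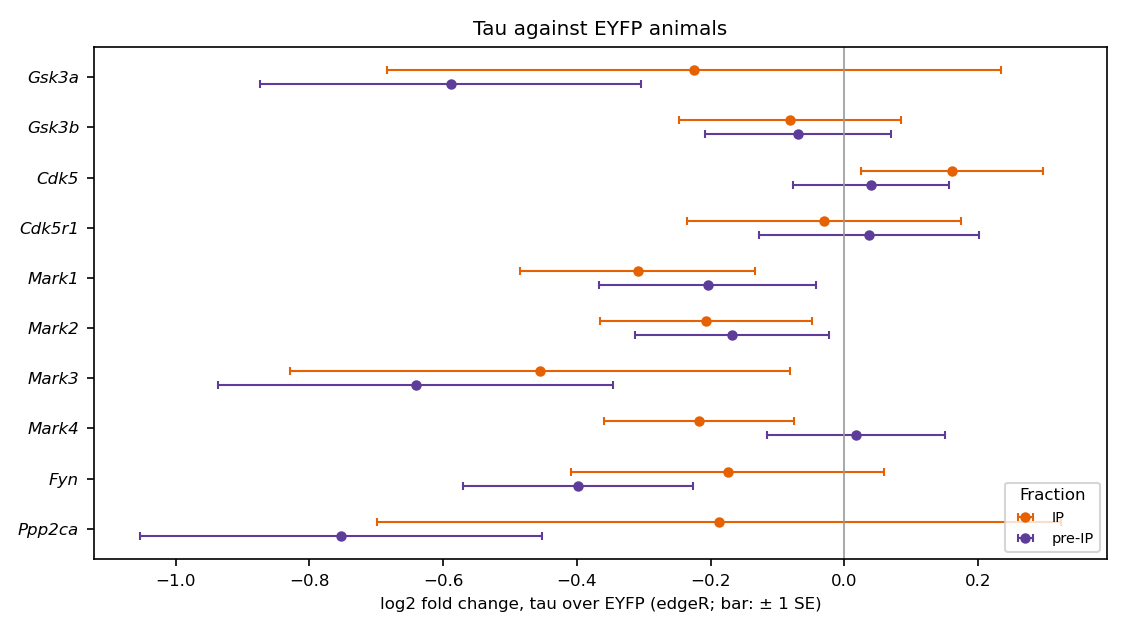
log2 fold change of tau over EYFP animals (x axis) from edgeR with bars of ± 1 SE, for the 10 genes (rows) in IP and in pre-IP. In pre-IP Ppp2ca is at -0.75, Mark3 at -0.64 and Gsk3a at -0.59, and the bars of Cdk5 are the shortest in each fraction.

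In pre-IP, 0 of the 10 genes passed, beside 0 of 19197 tested in edgeR (0%) and 0 in DESeq2. An unadjusted p under 0.05 was found for 2 of the 10, both lower in tau, and for 2.84% of all genes (2.26% lower). Ppp2ca was at -0.75 (SE 0.30, unadjusted edgeR p 0.0278), with tau libraries from 130.5 to 319.5 CPM and EYFP libraries from 307 to 527. Without K, the EYFP animal with tau construct counts, it was at -0.48 (unadjusted edgeR p 0.136). Fyn was at -0.40 (SE 0.17, unadjusted edgeR p 0.0392), and its highest tau library, 118 CPM, lay under its lowest EYFP library, 123 CPM, a separation in that direction seen in 1.68% of genes (1.47% in the other, with none of the 10). The adjusted p of both was 1.0 in edgeR, so neither is a call. Within library numbers up to 11 and from 17 on, the differences of mean log2 CPM were -0.67 and -1.20 for Ppp2ca and -0.41 and -0.46 for Fyn. The first range held 2 tau and 2 EYFP libraries. The second held 2 tau libraries and only 1 EYFP library, that of K.

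In pre-IP 7 of the 10 lay below 0, beside 50.1% of genes. Among the others, Mark3 was at -0.64 (SE 0.29) and at -0.10 without animal K, whose EYFP library had 39.9 CPM against 18.4 and 15.3 in H and I. Gsk3a was at -0.59 (SE 0.28), and between -0.38 without B and -0.90 without L. Mark1 (-0.20, SE 0.16), Mark2 (-0.17, SE 0.14) and Gsk3b (-0.07, SE 0.14) were slightly below 0. Cdk5, Cdk5r1 and Mark4 lay between 0.02 and 0.04 with SEs of 0.12 to 0.16. Without a filter on low counts, which tests 32286 genes, Ppp2ca passed at -0.76 (edgeR adjusted p 0.0431) and 44 genes did in all.

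Whether the tau contrast differed between fractions was tested as an interaction over all 14 libraries, with no term for the animal. None of the 10 passed, beside 0 of 20495 genes in edgeR (0%), 5.97% with an unadjusted p under 0.05 (1.94% lower, with none of the 10), and 52 genes but none of the 10 in DESeq2. Ppp2ca was at 0.57 (SE 0.66, edgeR adjusted p 0.919), and between 0.043 without M and 1.03 without I. In this gene the change within animals was 0.63 ± 1.09 in tau and 0.01 ± 0.87 in EYFP animals (SD, n = 4 and 3). For Cdk5, the gene of smallest spread, the interaction was 0.13 (SE 0.16).

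Partners of the 10 genes were counted from 8 lists of 103 genes, all of which were tested. Between IP and pre-IP, 30 were higher and 18 lower in edgeR, beside 16.3% higher and 14.7% lower of all 18792 genes tested, the shares against which each list count below is to be read. Their median log2 fold change was 0.03 against -0.0035 for all genes. Of 10 regulators of MARK, 3 were higher and 4 lower: Taok1, a kinase that activates MARK, rose by 1.13 (log2), while its paralog Taok2 fell by 1.09 (SE 0.12, edgeR adjusted p 3.7e-05), from 106 to 150.05 CPM in tau pre-IP to 45.3 to 57.5 in tau IP. Of 11 GSK3 regulators, 3 were higher and 1 lower: Apc, a scaffold protein of the complex that degrades beta-catenin, rose by 1.014, and the kinase gene Akt2 fell by 0.68. Of 10 CDK5 regulators 1 was higher, Capns1, the small subunit of the calpains that cut p35. Of 9 Src family genes and FYN regulators, Grin2a, Grin2b and Yes1 rose, and Src and Ptpn5, a phosphatase that acts on FYN, fell.

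The PP2A subunits, 16 genes beside Ppp2ca, had 3 higher and 4 lower. Ppp2cb, the catalytic subunit beta, rose by 0.53, and the regulatory subunits Ppp2r5d and Strn4 fell by 0.81 and 0.86 (SE 0.10 and 0.11, edgeR adjusted p 7.09e-05 and 8.37e-05). Of 11 modifiers and inhibitors of PP2A, 5 were higher and 0 lower, beside the same 16.3% and 14.7% of all genes: Cip2a, Anp32a, Igbp1, Lcmt1 and Set. Other tau phosphatases had 3 of 8 higher, among them the calcineurin genes Ppp3ca and Ppp3cb, and 1 lower, Ppp1cc.

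Of 28 other tau kinases, 9 were higher and 6 lower. The kinase genes Rock1 and Rock2 rose most, by 1.76 and 1.35 (log2, SE 0.19 each, edgeR adjusted p 3.24e-05 and 0.00013). Rock1 had 8.65 to 12.7 CPM in tau IP and 9.01 to 15.2 in EYFP IP, against 2.14 to 4.93 over all pre-IP libraries. The tau tubulin kinase Ttbk2 rose by 0.76 (SE 0.12, edgeR adjusted p 0.000237). Abl1, Camk2a, Camk2b, Csnk1d, Mapk9 and Mapk14 fell, and paralogs of several of these rose (Camk2g, Mapk8).

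Between tau and EYFP animals none of the 103 partners passed in either fraction. In IP the smallest p-values in each direction were those of Arpp19, an inhibitor of PP2A, at 0.56 (SE 0.17) and of the calpain gene Capn2 at -0.69 (SE 0.17). The edgeR adjusted p was 0.318 for both. Arpp19 had 241 to 344 CPM in tau and 156 to 202 in EYFP IP libraries, and Capn2 29.3 to 38.6 and 48.0 to 64.0, and groups were separated in these directions in 8.62% and 5.84% of all genes. All 11 modifiers and inhibitors of PP2A lay above 0 in IP with a median of 0.34, and the 16 subunits had 6 above and 10 below 0, beside 56.6% of all genes below 0. In pre-IP the smallest p-values in each direction were those of Ppp1r1b at 0.31 (SE 0.18) and of Cab39, a scaffold of the kinase LKB1, at -0.53 (SE 0.17), both with an edgeR adjusted p of 1.0. For the interaction the smallest in each direction were those of Ensa at 0.50 (SE 0.19, edgeR adjusted p 0.793) and of Ppp2r5d at -0.52 (SE 0.16, edgeR adjusted p 0.692).

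Mapt, the mouse gene of tau, on which these enzymes act, had 337 ± 73.1 CPM in tau IP, 347 ± 9.22 in EYFP IP, 314 ± 37.3 in tau pre-IP and 266 ± 47.0 in EYFP pre-IP (SD, n = 4, 3, 4 and 3). Dbh, which encodes the enzyme that makes noradrenaline, had 130.4 to 1516 CPM in tau IP, 28.0 to 55.6 in EYFP IP and 8.13 to 27.3 in pre-IP. Th and Slc6a2, the other markers named here, had 180.0 to 1509 and 54.6 to 720.4 CPM in tau IP and 102 to 110.4 and 15.4 to 32.6 in EYFP IP. None of the 10 genes had a spread in IP of the size these markers had in tau IP. The widest, Ppp2ca, was 3.62-fold. In EYFP IP alone Ppp2ca also ran from 177 to 641 CPM, a wider spread in fold than that of these markers there.

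Several of the genes overlap others in the annotation by their gene bounds, introns included, and the use of strand in counting is not given in the sources used here. Whether exons overlap was not examined, so shared reads are possible but not shown. Gsk3a overlaps 9130221H12Rik, Mark1 Gm38251, Mark2 Gm17227, and Fyn Gm6963, Gm16364 and Gm16365, all on the opposite strand. Ppp2ca overlaps Mir3061, Gm26551, Gm24157 and 9430098F02Rik, Gsk3b the small genes Gm25617 and Gm27931, and Mark3 shares its strand with Gm48286. Cdk5, Cdk5r1 and Mark4 overlap none.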

How the data were processed

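RNA was extracted with a Zymo kit, and SMART-Seq v4 and Nextera XT kits gave libraries of polyadenylated RNA, per the labels' protocols. FastQC, Trim Galore, STAR and featureCounts, and the builds GRCm38 and mm10, are named per the submitters' processing notes; versions, strand and multi-mapping settings are not given in the sources used here. The authors deposited whole-number read counts per gene, not normalized, with a merged exon length in bases per gene and, per the file headers, an RNA integrity score and RNA concentration per library. In the count table, 2 empty header cells are stray, so columns were read by position, and the tau construct counts equalled those of the deposited sample sheet in all 14 libraries. Gene bounds equal GENCODE release M21 for 50973 genes and differ for 0, and 3669 of 3766 entries without a deposited symbol were named from it.

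Deposited counts were tested in edgeR 4.0.16 (R 4.3.3) by quasi-likelihood F tests, with filterByExpr, TMM scaling and Benjamini-Hochberg adjustment over all genes tested, at a threshold of 0.05; an SE is the log2 fold change over the square root of F. Each tau comparison used its own libraries, IP against pre-IP and the interaction all 14 with no animal term. Per-animal log2 differences used a prior count of 2. Same-lettered libraries come from 1 animal by their titles. Their deviations from the group means correlated in 7 of 7 animals (r 0.15 to 0.36). No values for pairs of different letters are set beside these, so they do not test the pairing. Over 18 pairs of libraries of a group, chi-square per degree of freedom was at least 26.9, so none was a repeat. The fits were also run on simulated counts, with the outcome not reported here. Alternatives were DESeq2 1.42.0 and its size factors, no filter, and library-number range or sex as labelled as covariate. Others were a block for the animal, tau or EYFP animals alone, a single fit, and leaving out each animal. Named were all 10 genes, the 3 partners with the smallest p in each direction between IP and pre-IP and 1 in each other comparison, the gene most like each of the 10 (not reported here for Gsk3b and Cdk5r1), and Mapt, Dbh, Th and Slc6a2. The other partners past the threshold were named after their values were seen. The genes and lists were chosen with earlier results of these data known.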

Additional observations from a re-analysis of the deposited data

How the results depend on the processing

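Among the 10 genes, the Mark1 and Mark2 calls between IP and pre-IP held in edgeR and DESeq2 under each alternative except EYFP animals alone (0.65 and -0.50), where 1218 genes and 0 of the 10 passed. Mark3 passed with the animal as replicate block (0.70, edgeR adjusted p 0.0477), was lost in the tau and in the EYFP animals alone (0.79 and 0.63), and ran from 0.52 to 0.96 without replicate I and without replicate K. The replicate block changed no call of the 10, with 6119 genes called in place of 5828. Counts of 0 rose with DESeq2 (411 in IP, 52 for the interaction), with no filter (113 in IP, 44 in pre-IP, of which 1 was among the 10, Ppp2ca, and 67 for the interaction) and in a single fit (202 in IP), and leaving out 1 animal gave 0 to 128 in IP and 0 to 56 for the interaction (highest without M) and 0 to 1 in pre-IP (without B or K). Uncalled changes that crossed 0 when an animal was left out were, for tau over EYFP in IP, Gsk3a (-0.56 to 0.016), Gsk3b (-0.19 to 0.029), Cdk5r1 (-0.20 to 0.060) and Ppp2ca (-0.58 to 0.20). In pre-IP they were Cdk5r1 (-0.089 to 0.14) and Mark4 (-0.065 to 0.10), and for the interaction Gsk3a (-0.11 to 0.63), Gsk3b (-0.12 to 0.045), Cdk5 (-0.020 to 0.22), Mark1 (-0.28 to 0.077), Mark2 (-0.18 to 0.059) and Mark3 (-0.42 to 0.86). With the library-number range as covariate, Cdk5r1 in IP came to 0.014 and Mark4 in pre-IP to -0.0063, and Cdk5 between IP and pre-IP to -0.020 in the EYFP animals alone. With the longest transcript as length, the Mark shares over all libraries moved from 17.9% to 12.8% for Mark1, from 40.4% to 49.1% for Mark2 and from 32.2% to 26.7% for Mark4. The causes were not tested. The 10 genes had at least 627 counts in each library, far above the floor of 3.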
